A study of Mus musculus with 10 samples.

Results

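The genes described here were 53 sarcomere, calcium-handling, natriuretic peptide and myogenic factor genes, chosen by symbol, of 24302 genes listed in the deposited tables. All 53 were found. For description, 17 were classed as cardiac, 23 as skeletal and 13 as shared by both muscles, from textbook knowledge of where each is used. RNA came from whole C57BL/6 mouse embryos at embryonic day 11.5, with 3 wildtype, 3 heterozygous (WWC2 -/+) and 4 homozygous (WWC2 -/-) *Wwc2* knockout embryos. *Wwc2* encodes an upstream component of the Hippo pathway, and the study described the homozygous embryos as growth retarded. The deletion was made from a floxed allele with a Cre driven by *Zp3*, which is active in growing oocytes. The labels do not say which embryos shared a litter, and they name only the embryo as tissue.

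The study compared the genotypes, but no genotype comparison of these genes is given here. The tables held a mean normalized count over all embryos and columns of the authors' own comparisons, which were not used. Values for single embryos were not analysed here, so the values below have no spread between embryos and no test, and the labels could not be checked by the *Wwc2* count of each embryo. What could be described was which contractile genes the embryos' RNA contained on average, in which proportion, and how the cardiac, skeletal and shared genes compared. Because the mean mixes the 3 genotypes, it is not the level of a wildtype embryo. In bulk RNA, fewer cells of a type and less RNA per cell cannot be told apart.

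The sarcomere is the contractile unit of heart and skeletal muscle. Myosin motors pull on actin filaments, troponin and tropomyosin open the filament when calcium rises, and titin, nebulin, alpha-actinin and myomesin hold the filaments in place. Calcium leaves the sarcoplasmic reticulum through ryanodine receptors and is pumped back by SERCA enzymes. Many of these proteins are encoded by paralogs that heart, slow muscle, fast muscle and embryonic muscle use to different extents. At this stage of mouse development the heart is already beating, while the first skeletal muscle of the trunk is being formed from myotomes.

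The regulatory sequence before the start site is shown for 6 of the genes described below. They are 3 cardiac genes (*Nppa*, *Myl7* and *Mybpc3*), 2 skeletal genes (*Mylpf* and *Myh3*) and the shared gene *Des*. Each line gives the 250 bases before the RefSeq start site on the strand of the gene, in build GRCm38.p6. The positions are chr4:148000472-148000721 on the plus strand for *Nppa*, chr11:5898783-5899032 on the minus strand for *Myl7*, chr2:91117894-91118143 on the plus strand for *Mybpc3*, chr7:127211358-127211607 on the plus strand for *Mylpf*, chr11:67078050-67078299 on the plus strand for *Myh3* and chr1:75360042-75360291 on the plus strand for *Des*. Capitals mark matches, on either strand, to 4 motifs: the CArG box, bound by SRF; the MEF2 site; the TATA box, TATAAA; and CAGCTG, an E-box form that MyoD-family factors bind.
Nppa: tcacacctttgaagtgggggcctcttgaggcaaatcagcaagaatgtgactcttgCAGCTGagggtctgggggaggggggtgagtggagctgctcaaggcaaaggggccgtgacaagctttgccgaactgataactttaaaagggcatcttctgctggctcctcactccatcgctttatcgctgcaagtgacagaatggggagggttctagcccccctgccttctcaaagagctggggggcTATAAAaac
Myl7: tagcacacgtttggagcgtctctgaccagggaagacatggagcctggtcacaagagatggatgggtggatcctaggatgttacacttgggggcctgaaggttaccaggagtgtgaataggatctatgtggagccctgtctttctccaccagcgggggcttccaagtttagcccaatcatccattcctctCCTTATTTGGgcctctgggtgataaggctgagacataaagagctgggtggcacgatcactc
Mybpc3: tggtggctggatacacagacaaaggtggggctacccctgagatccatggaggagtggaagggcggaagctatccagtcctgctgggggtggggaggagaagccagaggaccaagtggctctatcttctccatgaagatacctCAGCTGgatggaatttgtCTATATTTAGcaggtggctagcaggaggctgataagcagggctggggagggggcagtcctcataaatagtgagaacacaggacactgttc
Mylpf: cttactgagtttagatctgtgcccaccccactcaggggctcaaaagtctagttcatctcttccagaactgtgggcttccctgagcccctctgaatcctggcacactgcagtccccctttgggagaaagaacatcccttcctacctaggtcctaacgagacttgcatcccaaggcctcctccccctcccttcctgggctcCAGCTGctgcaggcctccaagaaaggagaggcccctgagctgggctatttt
Myh3: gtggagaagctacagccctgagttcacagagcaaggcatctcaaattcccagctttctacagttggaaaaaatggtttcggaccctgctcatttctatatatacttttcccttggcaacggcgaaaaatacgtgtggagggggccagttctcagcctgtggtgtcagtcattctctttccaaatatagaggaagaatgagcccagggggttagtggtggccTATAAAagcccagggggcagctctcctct
Des: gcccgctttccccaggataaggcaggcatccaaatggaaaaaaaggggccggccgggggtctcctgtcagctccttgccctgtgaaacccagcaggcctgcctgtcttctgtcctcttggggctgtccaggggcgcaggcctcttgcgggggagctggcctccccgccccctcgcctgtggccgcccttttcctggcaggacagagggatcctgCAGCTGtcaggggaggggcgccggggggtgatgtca

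In these windows the letters of a CArG box began 61 bases before the start of *Myl7*. *Mybpc3* held a MEF2 site at 90 bases and CAGCTG at 108 bases before its start. *Myh3* had TATAAA at 29 bases, *Mylpf* CAGCTG at 51 bases and *Des* CAGCTG at 36 bases before the start. *Nppa* had TATAAA at 9 bases and CAGCTG at 195 bases before the RefSeq start. A match describes the letters and was not tested as a binding site. All windows shown hold at least 1 of the 4 motifs, whereas 24 of the 54 windows matched to the muscle genes held none. The sequences shown are therefore not typical of the set in this respect.

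Of the 53 genes, 51 had a mean of at least 10 normalized counts, against 65.5% of all listed genes, and 45 had at least 100, against 51.9%. *Myh2* (2.861 normalized counts) and *Ckm* (8.912) were the exceptions at the lower limit. Together the genes summed to 76380 normalized counts, 0.299% of the sum over all genes. Of these counts, 22407 came from the 3 tropomyosins, which are not limited to striated muscle, so the sum is not a share of muscle RNA. All 17 cardiac genes reached 100, as did 18 of 23 skeletal and 10 of 13 shared genes. RNA of each of the 53 genes was therefore counted in these embryos, most of it far above the lower limit.

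Long genes collect more reads, so levels are compared between genes as the mean normalized count per kilobase of annotated exon, which is the meaning of level below. Over all genes with a mean of at least 10 and a gene model, the median level was 145. The cardiac genes had a median level of 294.6, the skeletal genes 97.97 and the shared genes 79.39. The level was above 145 in 12 of 17 cardiac, 8 of 23 skeletal and 6 of 13 shared genes. The cardiac median was therefore above that of all genes and both other medians were below it. The order of skeletal and shared genes rests on the length used: per kilobase of the longest coding transcript the medians were 427 for cardiac, 125 for skeletal and 148 for shared genes. It rests also on the class of 7 cardiac genes that slow skeletal muscle uses too (*Myh7*, *Myl2*, *Myl3*, *Tnnc1*, *Csrp3*, *Pln* and *Casq2*). With these moved to the shared class, the medians were 293 for cardiac, 98 for skeletal and 291 for shared genes. The shared median then also lay above the 145 of all genes. That reference was computed for exon length only.

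**Figure D1:**
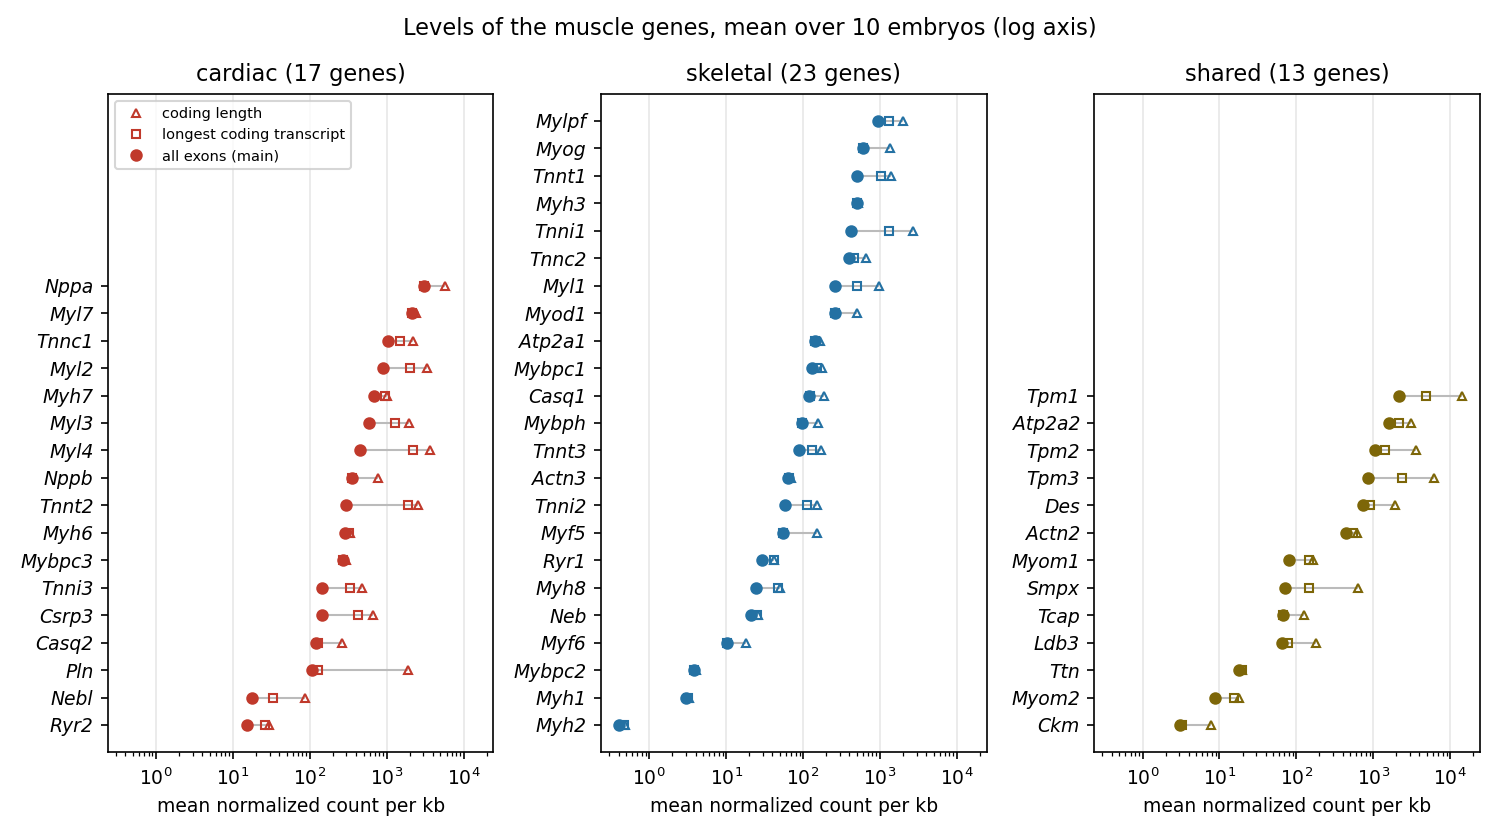
Level of each gene by class, as mean normalized count over 10 embryos per kilobase on a log axis, with filled circles for all exons, squares for the longest coding transcript and triangles for the coding length. By all exons, the cardiac genes run from 15.14 for *Ryr2* to 3046 for *Nppa* and the skeletal genes from 0.4008 for *Myh2* to 943.4 for *Mylpf*. The shared genes run from 3.06 for *Ckm* to 2171 for *Tpm1* by the same length.

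**Figure D2:**
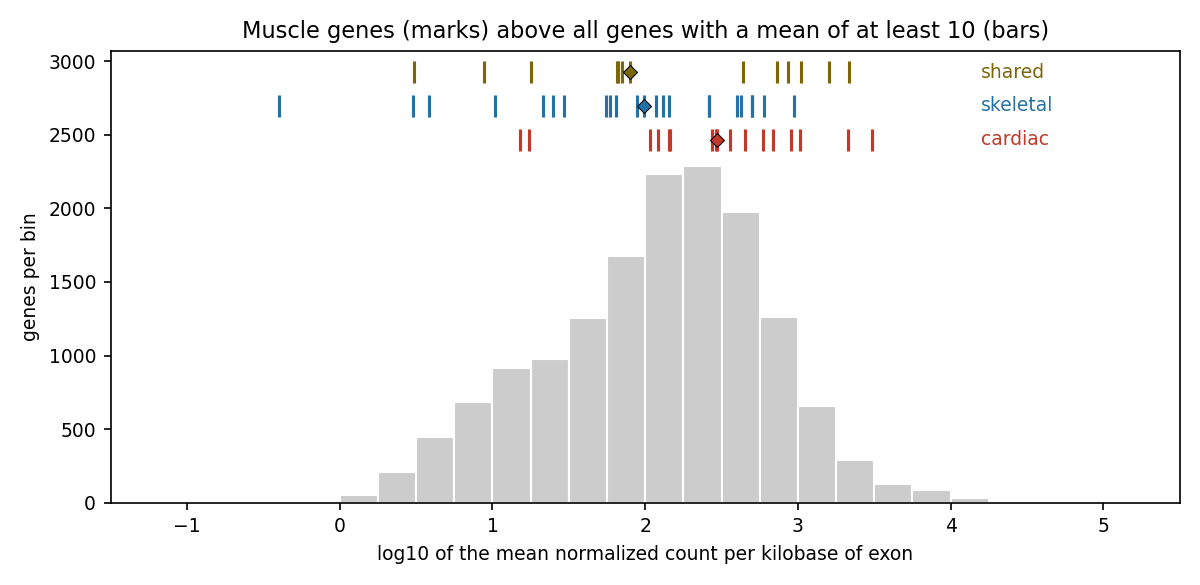
Levels of the cardiac, skeletal and shared genes (vertical marks, with a diamond at each class median) above the number of genes per bin for all genes with a mean of at least 10 (bars), on the log10 scale of the mean normalized count per kilobase of exon. The cardiac median of 294.6 lies above the median of all these genes, 145, and the other class medians lie below it. With the cardiac genes that slow muscle also uses moved to shared, the shared median was 291.

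The cardiac class ran from a hormone and light chains at the top to a calcium channel at the bottom. *Nppa*, which encodes the hormone ANP secreted by atrial and embryonic heart muscle, had the highest level of all 53 genes, 3046. *Myl7*, the atrial regulatory light chain, followed in the class with 2137. *Tnnc1*, the calcium-binding troponin of heart and slow muscle, had 1033, and *Myl2*, the ventricular and slow-muscle regulatory light chain, had 905.4. *Myh7*, the beta myosin heavy chain, had 688.3 and *Myl3*, the ventricular essential light chain, 587.9. The lowest cardiac levels were those of *Pln*, the inhibitor of the SERCA pump, with 107.2, *Nebl*, a thin-filament scaffold, with 17.46, and *Ryr2*, the cardiac calcium release channel, with 15.14. The levels of the other 8 cardiac genes lay between these groups, from 120.5 for *Casq2* to 453.4 for *Myl4*. Parts of this order rest on the length used. Per kilobase of the longest coding transcript the shared gene *Tpm1* had 4873 against 3046 for *Nppa*, and *Myl4* had 2229 against 2137 for *Myl7*. Per kilobase of coding length *Pln* had 1896.

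The skeletal class was headed by a light chain, a myogenic factor, troponins and a heavy chain. *Mylpf*, the fast regulatory light chain, had the highest level, 943.4. *Myog*, the factor that drives myoblasts into differentiation, had 601.2, above *Tnnt1*, a slow troponin T, with 502.5 and *Myh3*, the embryonic myosin heavy chain, with 500.4. *Tnni1*, the slow troponin I, had 423.8 and *Tnnc2*, the fast troponin C, 400. This order also rests on the length used. Per kilobase of the longest coding transcript *Tnni1* had 1327 against 1308 for *Mylpf*, and *Tnnt1* had 1046 against 601.2 for *Myog*. *Tnni1* and *Tnnt1* are classed here as skeletal but are also used by the embryonic heart, which whole-embryo RNA does not separate. The same limit holds for the genes classed as cardiac, because whole-embryo RNA does not show which muscle their reads came from. At the other end, *Mybpc2*, a fast myosin-binding protein, had 3.847, *Myh1*, a fast motor of adult muscle, 3.033 and *Myh2*, another, 0.4008. *Myh2* rested on between 17.63 and 35.16 reads over all embryos, which gives a counting error of up to 23.82%.

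Among the shared genes the tropomyosins and the calcium pump led. *Tpm1* had a level of 2171, *Tpm2* 1054 and *Tpm3* 864. *Atp2a2*, the SERCA pump of heart and slow muscle that many other cells also use, had 1607. *Des*, the muscle intermediate filament protein, had 728.2 and *Actn2*, the alpha-actinin of the Z-disc, 438.4. The lowest were *Ttn*, the giant spring of the sarcomere, with 17.86 over the longest exon sum of these genes, 116825 bases, *Myom2*, an M-band protein, with 8.832 and *Ckm*, the creatine kinase of mature muscle, with 3.06. The 4 shared genes between these groups were *Myom1*, *Smpx*, *Tcap* and *Ldb3*, from 64.92 to 79.39. Tropomyosins, desmin and this pump are not limited to striated muscle. Of the smooth muscle markers, 6 of 6 also reached 100 normalized counts, with levels from 18.93 for *Myh11* to 2276 for *Acta2*. The part of smooth muscle or of other cells in the levels of the shared genes was not tested.

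Within the myosin heavy chains, the motors themselves, 3 genes made up nearly all of the summed level. *Myh7* held 45.6%, *Myh3* 33.2% and *Myh6*, the alpha chain of the atrium, 19.3%. *Myh8*, the perinatal chain, held 1.64%, *Myh1* 0.201% and *Myh2* 0.0266%. The level of *Myh7* was 2.36 times that of *Myh6* and 1.38 times that of *Myh3*. *Myh6* and *Myh7* are neighbours on chromosome 14 and share 14.7% and 14.4% of their 80-base words, the read length, so reads from those stretches cannot be assigned to either gene. *Myh1*, *Myh2* and *Myh8* share 15%, 14.7% and 11.3% of theirs with each other or with *Myh4*, a fast chain with a mean of 19.75 normalized counts.

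The light chains differed in how firmly they could be ordered. Of the regulatory chains, *Myl7* held 53.6% of the level per kilobase of exon, *Mylpf* 23.7% and *Myl2* 22.7%. Per kilobase of coding length *Myl2* led instead, with 43.3% against 31.1% for *Myl7*. Of the essential chains, *Myl3* held 45.1%, *Myl4*, the atrial and embryonic chain, 34.7% and *Myl1*, the fast chain, 20.2%. *Myl1* shares 15.2% of its 80-base words with *Mylf-ps*. Per kilobase of the longest coding transcript *Myl4* led with 55.5% against 31.9% for *Myl3*, since the exons annotated for *Myl4* add up to 4637 bases and its transcript to 943. Which light chain led can therefore not be stated from these values. The chains classed as cardiac together held more than the single skeletal chain under each length: 79.8% or more of the essential and 74.4% or more of the regulatory chains. *Myl3* and *Myl2* are also used by slow skeletal muscle, and the values do not show which muscle the reads came from.

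The troponin subunits were led by genes of different classes, though *Tnni1* and *Tnnt1* are also used by the embryonic heart. For the calcium-binding subunit, cardiac *Tnnc1* held 72.1% and fast *Tnnc2* 27.9%. For the inhibitory subunit, slow *Tnni1* held 67.5%, cardiac *Tnni3* 23.2% and fast *Tnni2* 9.32%. Both orders held per kilobase of the longest coding transcript and of coding length. For the tropomyosin-binding subunit, *Tnnt1* held 56.8%, cardiac *Tnnt2* 33.3% and fast *Tnnt3* 9.93%, but per kilobase of the longest coding transcript *Tnnt2* led with 61.8%. The exons of *Tnnt2* add up to 7752 bases and its longest coding transcript to 1200. *Tnnc2* overlaps *Ube2c*, a cell cycle gene on the opposite strand with a mean of 4880 normalized counts, over 74% of its exon bases. The study's methods name a directional library kit, which keeps the strand, while the labels name the kit without that word. Whether the counting used strand is not given in the sources used here, and a part of *Ube2c* reads in the value of *Tnnc2* was not tested.

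Tropomyosins, alpha-actinins and myomesins were each led by a shared gene, and the myosin-binding proteins by a cardiac one. *Tpm1* held 53.1% of the tropomyosin level, *Tpm2* 25.8% and *Tpm3* 21.1%. The order of *Tpm2* and *Tpm3* turned under both other lengths, with 16.3% and 27.3% per kilobase of the longest coding transcript. *Tpm3* shares 51.8% of its 80-base words with pseudogenes. *Actn2* held 87.2% and the fast form *Actn3* 12.8% of the alpha-actinins, and *Myom1* held 90% and *Myom2* 10% of the myomesins. Of the myosin-binding proteins, cardiac *Mybpc3* held 53.9%, slow *Mybpc1* 26%, *Mybph* 19.3% and fast *Mybpc2* 0.759%. *Mybph* overlaps *Adora1* on the opposite strand over 49.89% of its exon bases. *Neb*, the thin-filament ruler of skeletal muscle, held 54.9% and *Nebl* 45.1%, an order that turned per kilobase of the longest coding transcript, with 43.3% for *Neb*.

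In calcium handling the shares were most unequal for the pump. *Atp2a2* held 91.8% of the SERCA level and *Atp2a1*, the fast-muscle pump, 8.18%. *Atp2a1* overlaps *Rabep2* on the opposite strand over 21.94% of its exon bases. *Ryr1*, the skeletal release channel, held 65.9% and *Ryr2* 34.1%. *Casq2* and *Casq1*, which store calcium in cardiac and fast skeletal muscle, held 50.5% and 49.5%, a ratio of 1.02 that lies within their counting error. Per kilobase of coding length *Casq2* held 58.1%. *Pln* shares 59.59% of its exon bases with an annotated gene on the opposite strand, *Gm47644*, that is not among the listed genes.

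The secreted and regulatory genes were each led by 1 gene. *Nppa* held 89.5% and *Nppb*, the hormone BNP, 10.5% of the natriuretic peptide level. *Nppa* overlaps the antisense gene *Gm13054* over 61.5% of its exon bases. Of the myogenic factors, which commit cells to skeletal muscle and drive their differentiation, *Myog* held 64.9%, *Myod1* 28.1%, *Myf5* 5.93% and *Myf6* 1.12%. *Myf6* had a mean of 13.13 normalized counts, and *Myog* 898.8.

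**Figure D3:**
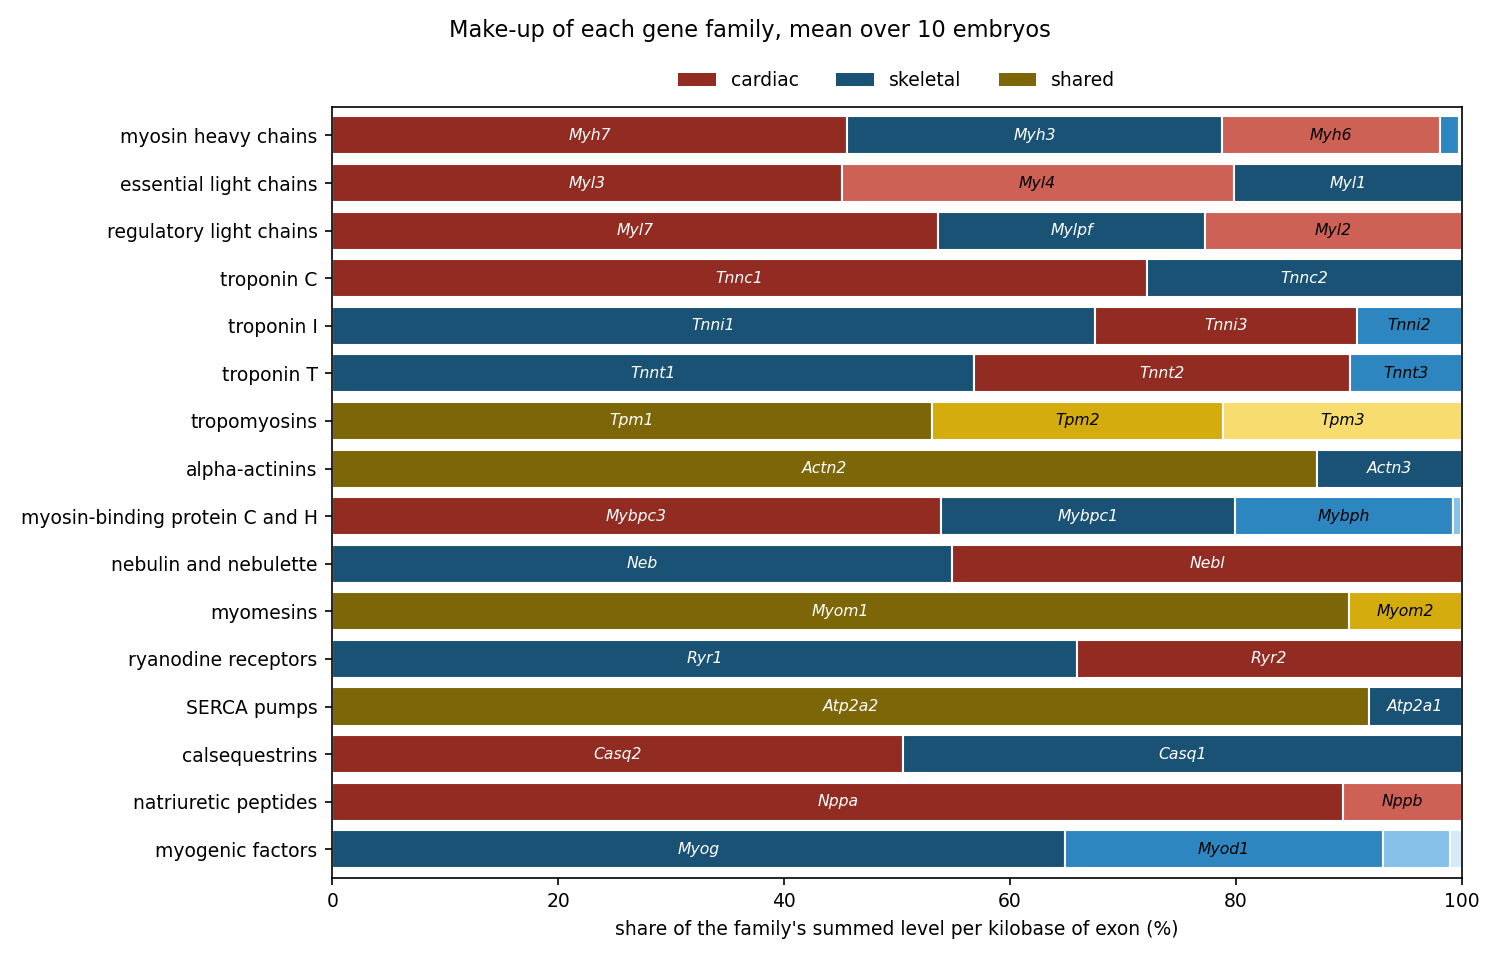
Share in percent of the summed level per kilobase of exon that each gene holds in its family, over the mean of 10 embryos, with cardiac genes in reds, skeletal in blues and shared in yellows. *Myh7*, *Myh3* and *Myh6* fill most of the heavy chains with 45.6%, 33.2% and 19.3%, and *Casq2* and *Casq1* divide the calsequestrins nearly evenly.

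Of 10 families with both cardiac and skeletal genes, the cardiac genes summed to more than the skeletal genes in 6 and to less in 4. The cardiac share was highest in the essential light chains, 79.8%, and lowest in troponin I, 23.2%. Per kilobase of the longest coding transcript the cardiac genes were ahead in 8 and per kilobase of coding length in 7 families. The cardiac genes were ahead under each length in the heavy chains, both kinds of light chain and troponin C. The skeletal genes were ahead under each length in troponin I and the ryanodine receptors. The lead in troponin I came from *Tnni1*, which the embryonic heart also uses. The calsequestrins, counted among the 6, differed by less than their counting error. These counts rest on the genes that slow skeletal muscle also uses. With those moved to shared, the cardiac genes were ahead in 3 families and the skeletal genes in 5, and troponin C and the calsequestrins had no cardiac gene left. The heavy chains turned, with 291.1 for *Myh6* against a skeletal sum of 528.6. In the essential light chains the cardiac lead then rested on *Myl4* alone, the atrial and embryonic chain, with 453.4 against 263.6 for *Myl1*. Only cardiac genes were moved in this way, while *Tnni1* and *Tnnt1*, also used by the embryonic heart, stayed skeletal. Without *Tnni1*, cardiac *Tnni3* had 145.4 against 58.53 for *Tnni2*. Without *Tnnt1*, cardiac *Tnnt2* had 294.6 against 87.91 for *Tnnt3*. Which class was ahead in more families therefore rests on how genes used by both muscles are classed.

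Promoter windows of RefSeq, with 250 bases before and 50 after the start, were matched for 44 of the 53 genes and gave 54 windows, since 8 genes have several. CAGCTG was found in 35.2% of these windows and in 16.3% of all 32851 promoter windows. The CArG box was found in 6 of 54 windows, 11.1%, against 1.63% of all, in *Myl7*, *Myl3*, *Nebl*, *Ldb3* and *Myom1*, where both *Ldb3* windows hold the same site. MEF2 sites were found in 5 windows, 9.26%, against 3.19% of all, in *Ttn*, *Mybpc3*, *Casq2*, *Myh1* and *Myh8*. TATAAA was found in 24.1% against 13.6%, the general E-box CANNTG in 83.3% against 72.3% and GATA in 75.9% against 57.9%.

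By class, CAGCTG stood in 8 of 18 skeletal, 7 of 24 cardiac and 4 of 12 shared windows. Both *Tnni1* windows, counted among the skeletal ones, hold the same CAGCTG. Of the 9 genes without a window, *Actn3*, *Myf6*, *Myod1*, *Neb*, *Tnni2* and *Tnnt3* are skeletal, the rest are shared and none is cardiac. The CArG box stood in 3 cardiac, 3 shared and 0 of 18 skeletal windows, and TATAAA in 8 skeletal, 5 cardiac and 0 of 12 shared windows. Every CAGCTG is also a CANNTG, and in *Myh1* and *Myh8* a TATAAA overlaps the MEF2 site. The windows overlap each other in 3 of the 8 genes with several, and no test was made. Before the start alone, 24 of 54 windows held none of the CArG box, MEF2 site, TATAAA or CAGCTG, among them those of *Myh7*, *Myh6*, *Tnnc1* and *Tpm1*. The share of all promoter windows with none of these motifs was not computed, so whether 24 is few or many cannot be said.

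**Figure D4:**
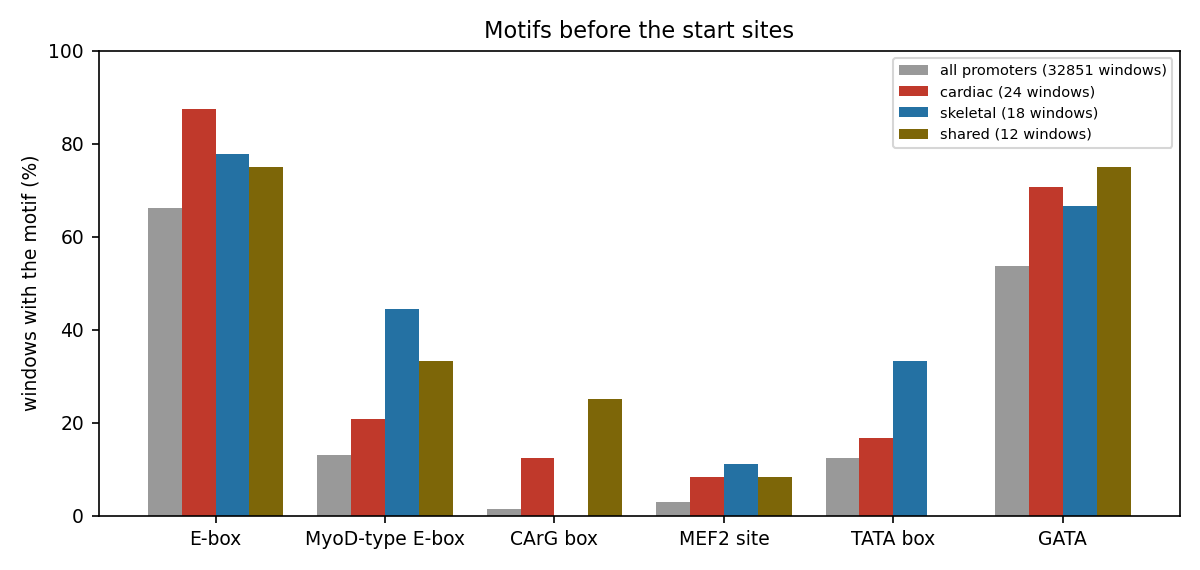
Percent of windows that hold each motif in the 250 bases before the start site, for all promoters (grey) and for windows of cardiac (24), skeletal (18) and shared (12) genes. CAGCTG is the MyoD-type E-box, and no skeletal window holds a CArG box.

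Other muscle genes showed that the set was not the whole of striated muscle in these embryos. Of 34 further muscle genes, 33 had a mean of at least 10 normalized counts, with a median level of 41.46. *Actc1*, the cardiac actin, had a level of 6658, above each of the 53 genes, and *Acta1*, the skeletal actin, 1158. By the mean without length correction, *Tpm1* had 14082 normalized counts against 10773 for *Actc1*. *Ckmt2*, the mitochondrial creatine kinase of muscle, had 2.918, close to the 3.06 of *Ckm*. All 20 listed regulators reached 100 normalized counts, from a level of 19.1 for *Myocd* to 1033 for *Srf*. The labelled whole embryo was met by markers of red cells, neural tissue, and liver or yolk sac, and 3 of 3 placental markers reached 100 as well, with *Tpbpa* at a level of 3250. The study listed *Tpbpa* and *Psg21* among its most upregulated genes in homozygous embryos. The mean over the genotypes therefore does not show that wildtype or heterozygous embryos held placental RNA at these levels.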

How the data were processed

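RNA of 10 whole embryos (3 wildtype, 3 heterozygous, 4 homozygous) was sequenced after poly(A) selection. Per the labels the processing used Trimmomatic 0.33, HISAT2, HTSeq and DESeq2 with mm10. The 2 deposited tables hold, for 24302 genes, a mean normalized count (a signal averaged by the authors over all embryos, the same in both tables) and columns of the authors' own comparisons (fold changes, errors, p-values), which were not used. The means of 1000 of 1000 genes under 0.25 were sums of up to 3 of 10 single-read steps (0.0814 to 0.1623, tolerance 3e-06), as for a mean over 10 embryos. A step had to be shared by 15 genes, a minimum lowered after a first one missed a step in simulated data. The steps bound the reads and the counting error per gene; they were not tied to embryos. Size factors ranged from 0.616 to 1.229, with the next lowest at 0.881.

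Levels were divided by GENCODE M21 exon length (22770 of 22835 identifiers matched). Shared 80-base words, exon overlaps and promoter motifs were computed with Python 3.11.15 and pandas 2.3.3. The 53 genes, classes and lists were chosen with earlier results of these data known. Named in full were the 6 highest and 3 lowest genes per class and each paralog family. No comparison between groups and no test were made. Alternatives were another length, no length, another minimum, another class for genes used by both muscles, the other table and a shorter promoter window.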

Additional observations from a re-analysis of the deposited data

How the results depend on the processing

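The class medians moved with the length used. Per kilobase of the longest coding transcript they were 427 for cardiac, 125 for skeletal and 148 for shared genes. Per kilobase of coding length they were 1022, 167 and 620, and with no length correction 1137, 320 and 1664. With the 7 genes of both muscles moved to shared, the cardiac median was 293 and the shared median 291, and the numbers at the minimum mean were 10 cardiac and 19 shared genes. The cardiac median was the highest of the 3 except with no length correction. The leading gene was the same in 13 of 16 families by longest coding transcript and in 12 by coding length. Another minimum (1 or 100) and the window before the start alone left the counts within 1.5 times. The other table gave the same summed mean, 76380, and could give no other, since its means are identical. No paired analysis was possible because values per embryo were not analysed here. For the same reason the fit by genotype with edgeR, planned only for counts per embryo, was not run. Fits with DESeq2, with other normalizations or filters, with a replicate block or with embryos left out were not made either. Depth limits mainly *Myh2*, *Ckm*, *Myf6* and *Mybpc2*, with counting errors of up to 23.82%, 13.49%, 11.12% and 10.81%.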
